A study of Mus musculus with 20 samples.

Results

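The 10 genes described here mark killer lymphocytes and the T cells that live within the gut lining. They are the granule genes Gzma, Gzmb, Gzmk, Prf1 and Nkg7, the co-receptor genes Cd8a and Cd8b1, the T cell receptor subunit gene Cd3e, and Itgae and Cd160, which are carried by many lymphocytes of the epithelium. They were chosen by name, with earlier results of these data known, from the 35204 rows of the table of counts per gene. All 10 were among the 16306 genes tested. Shares over all genes are thus given below as a reference and not as a test of the set. The study asked how a diet without tryptophan (Trp) changes gene expression in the terminal ileum of mice with and without a microbiota. All mice were female C57BL/6, 7 weeks old at the start, and were fed an amino acid-based diet for 3 weeks, either the control diet (CD) or the Trp-deficient diet (TDD). Each diet was given to specific pathogen-free (SPF) mice and to mice treated with an antibiotic cocktail (ABX) of gentamycin, neomycin, metronidazole, vancomycin and ampicillin in sweetened drinking water. The 4 groups are named CD, TDD, CD+ABX and TDD+ABX, and each held 5 mice. RNA came from a short, opened and washed piece of whole gut wall close to the cecum, so epithelium, lamina propria, muscle and any lymphoid follicle were sequenced together. In such tissue, fewer cells of a type and less RNA per cell cannot be told apart.

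Intraepithelial lymphocytes are T cells lodged between the enterocytes. Many of them express the integrin chain encoded by Itgae, which binds E-cadherin on epithelial cells, and carry granules loaded with granzymes and perforin. Conventional CD8 T cells hold a CD8 alpha beta heterodimer, encoded by Cd8a and Cd8b1, whereas many T cells that are particular to the gut epithelium, including a large share of gamma delta T cells, hold a CD8 alpha alpha homodimer, which needs only Cd8a. Perforin (Prf1) opens pores in a target cell membrane, and granzymes pass into the target and cleave its proteins. Granzyme B (Gzmb) triggers apoptosis, granzyme A (Gzma) is a tryptase abundant in gut lymphocytes, and granzyme K (Gzmk) is a tryptase that is typical of CD8 T cells with an effector memory phenotype.

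The 250 bases before the annotated start of the granzyme genes and Prf1 are shown because these 4 genes were high in the same mice yet fell by different amounts with ABX on CD, as given further on. Sequences are from RefSeq on GRCm38.p6 and read 5′ to 3′ on the strand of the gene. Capitals mark TGTGGT, the core bound by RUNX factors, or GGTGTGA, the core bound by T-box factors such as T-bet and Eomes, on either strand.
Gzma, chr13:113100982-113101231, minus strand: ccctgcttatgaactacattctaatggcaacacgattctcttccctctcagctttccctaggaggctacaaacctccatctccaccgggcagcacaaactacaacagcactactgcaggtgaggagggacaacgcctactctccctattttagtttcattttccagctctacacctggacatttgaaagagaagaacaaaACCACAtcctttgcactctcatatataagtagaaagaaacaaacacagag
Gzmb, chr14:56262335-56262584, minus strand: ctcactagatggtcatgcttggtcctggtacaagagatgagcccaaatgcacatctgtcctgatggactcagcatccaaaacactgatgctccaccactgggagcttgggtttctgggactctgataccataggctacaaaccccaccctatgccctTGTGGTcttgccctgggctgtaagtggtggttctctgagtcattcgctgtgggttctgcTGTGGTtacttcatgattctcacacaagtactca
Gzmk, chr13:113180966-113181215, minus strand: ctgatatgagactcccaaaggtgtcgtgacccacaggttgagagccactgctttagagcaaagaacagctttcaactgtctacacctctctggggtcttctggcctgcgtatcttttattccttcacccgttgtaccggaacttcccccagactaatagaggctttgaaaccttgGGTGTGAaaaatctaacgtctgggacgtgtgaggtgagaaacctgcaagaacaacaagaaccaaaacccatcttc
Prf1, chr10:61297586-61297835, plus strand: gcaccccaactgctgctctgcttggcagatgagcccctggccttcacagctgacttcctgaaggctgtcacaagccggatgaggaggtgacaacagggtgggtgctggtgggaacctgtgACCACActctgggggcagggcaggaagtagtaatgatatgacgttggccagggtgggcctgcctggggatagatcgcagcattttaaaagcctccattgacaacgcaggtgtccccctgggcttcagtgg
Gzma, Gzmb and Prf1 held the RUNX core and not the T-box core, and Gzmk held the T-box core and not the RUNX core. Nkg7, a granule gene whose sequence is not shown, held both cores. Gzma had its RUNX core 50 bases before the start, Prf1 130 bases and Gzmb 93 and 34 bases before it, and the T-box core of Gzmk lay 75 bases before its start. Of the 10 genes, 8 had a promoter in this collection, and 5 of these held the RUNX core (Gzma, Gzmb, Prf1, Nkg7 and Cd160) and 3 the T-box core (Gzmk, Nkg7 and Cd160). Cd160 has a pair of annotated starts in this collection and the others 1 each. No match of one core overlapped a match of the other in these windows. Over all 32851 promoters, 14% held the RUNX core and 3.33% the T-box core. These 2 were chosen for display from 12 motifs after the matches had been seen, and the contrast between Gzmk and the other 3 genes depends on the letters used. With 1 base left free (TGNGGT), the RUNX motif was held by 7 of the 8 genes, Gzmk among them, and by 40.1% of all promoters. The T-box letters AGGTGT were held by Gzma, Prf1, Gzmk, Nkg7 and Cd3e and by 11.8% of all promoters, and GGTGTG, which lies within the T-box core, by the same 3 genes as the core and by 16.3%. The ETS letters AGGAAGT were held by 2 of the 8 genes (7.69% of all promoters) and CAGGAA by 4 (25.7%), the STAT letters TTCNNNGAA by 2 (7.02%), the IRF letters of GAAA repeated after 2 free bases by Gzma (2.98%) and the AP-1 letters TGANTCA by Gzmb (6.75%). None held the CRE (TGACGTCA, 1.55%) or the TATA letters TATAAA (12.4%). All were searched on both strands, and a match describes letters within the window. Any part of these letters in the levels of the genes was not tested.

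Before any comparison, 2 CD mice stood apart. CD mouse 5 was the highest of the 20 mice for all 10 genes, and CD mouse 4 was the second highest for all 10. In CPM (the count of a gene as a share of its library after scaling), CD mouse 5 exceeded the highest of the other 18 mice by between 2.0-fold (Prf1) and 6.45-fold (Gzmk), and CD mouse 4 did so by between 1.48-fold (Cd3e) and 4.34-fold (Gzmk). The third highest mouse was another CD mouse for 7 genes and a TDD-fed mouse for 3, and the lowest mouse was ABX-treated for all 10. The labels give no batch, cage or date that would set these 2 mice apart from CD mice 1 to 3. For the 10 genes, the diet comparison in SPF mice and the ABX comparison on CD are therefore given with and without both, an alternative that was added after seeing the data. Since both were picked for being the highest, leaving them out lowers the CD level of all 10 genes by construction. It also leaves only CD mice 1 to 3 in that group. A smaller fall in that fit is thus no separate result.

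**Figure D1:**
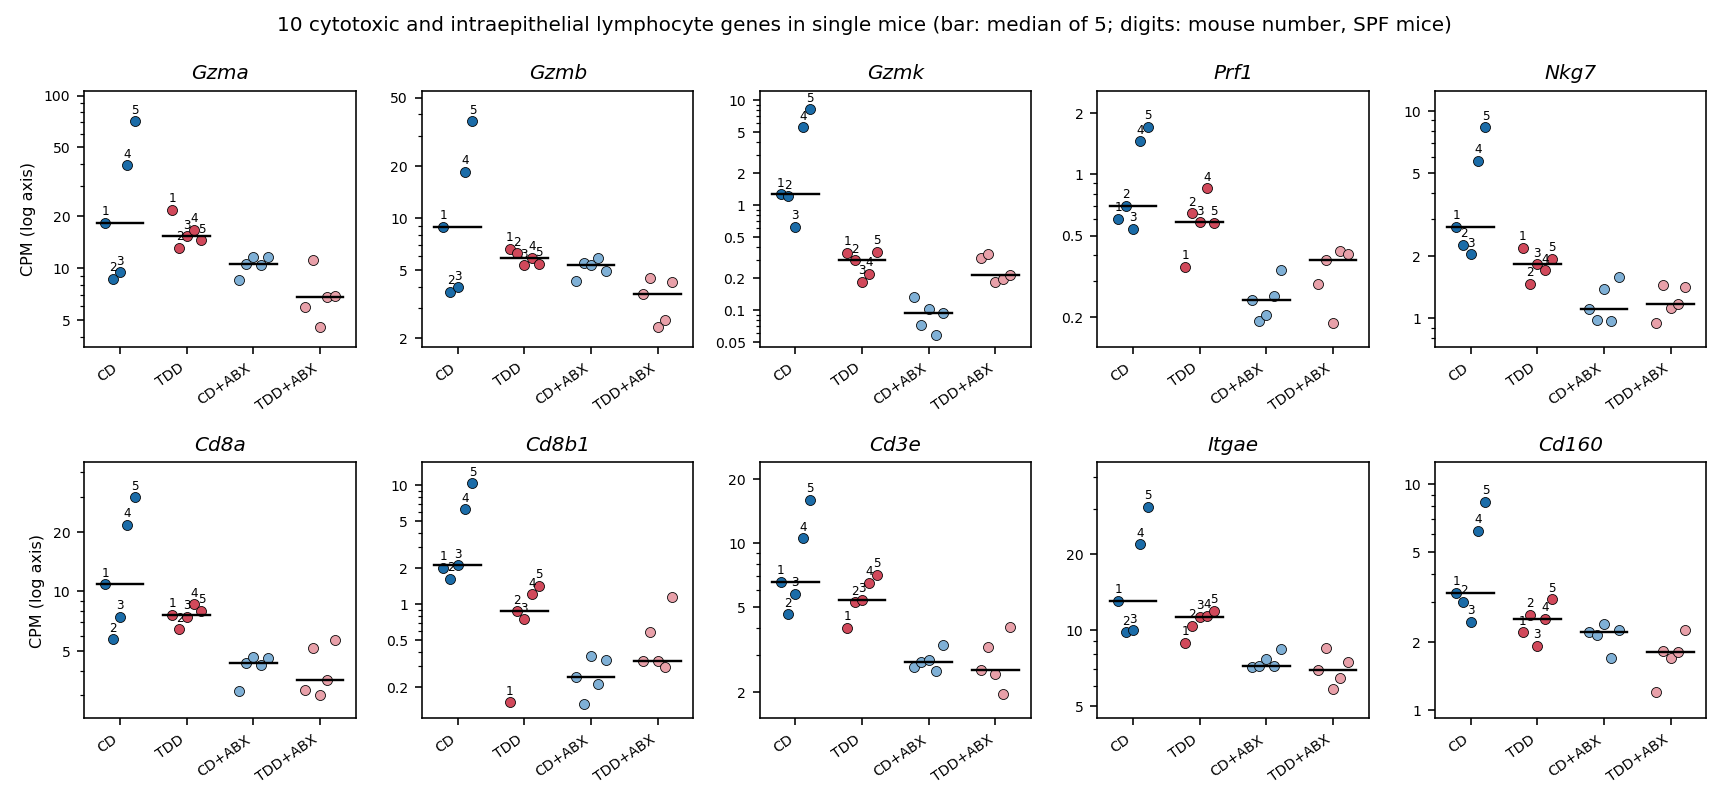
CPM of each of the 10 genes (log axis) in each of the 20 mice, by group, where each point is 1 mouse, the bar is the median of 5 mice and digits give the mouse number in the SPF groups. CD mice 4 and 5 lie above the other 18 mice in every panel, and for Gzmk and Cd8b1 all 5 CD mice lie above all 5 TDD-fed mice.

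The libraries held 36676963 to 58662617 counts each. The tissue was rich in the enterocyte gene Vil1, at 2491 to 5132 CPM over the 20 mice. The ileal bile acid genes, in contrast, were low in SPF mice, at 0.24 to 3.91 CPM for Fabp6 and 1.38 to 8.80 CPM for Slc10a2, and both rose with ABX on either diet (Slc10a2 log2 fold change 4.07, q = 9.83e-05 on CD, and Fabp6 5.14, q = 0.00585, from edgeR's quasi-likelihood test). B cell and follicle markers varied from mouse to mouse. The summed level of the 8 markers was 75.2 and 110.9 CPM in CD mice 2 and 3 but 5.09 to 7.25 CPM in CD mice 1, 4 and 5. It was 79.0 to 170.4 CPM in TDD mice 2 to 5 and 5.32 CPM in TDD mouse 1. With ABX it was 3.13 to 9.02 CPM on CD and 4.28 to 27.1 CPM in TDD+ABX mice 1 to 4, and TDD+ABX mouse 5 had 120.4 CPM. The 2 mice that were highest for the cytotoxic genes thus had low levels of B cell markers, and the part of follicle content in the results that follow was not tested.

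Of the 10 genes, 3 fell in TDD-fed SPF mice relative to CD-fed SPF mice, namely Gzmk, Cd8b1 and Nkg7, and none rose (edgeR's quasi-likelihood test over all genes, with q, the Benjamini-Hochberg adjusted p, under 0.05 and at least a 2-fold change). Over all genes tested, 0.993% fell by this rule. The median log2 fold change was -0.95 over the 10 genes and 0.01 over all genes. Without CD mice 4 and 5, only Gzmk was called, where 0.633% of all genes fell, and the median over the 10 genes was -0.06. Leaving out CD mouse 2 or CD mouse 3, which had the lowest Gzma and Gzmb of the CD group, added Gzmb, Cd8a and Cd160 and gave 6 called genes. The share of all genes called in these fits is not given here. Markers of another cell type were also lower on TDD. The summed level of 7 macrophage and dendritic cell markers was 231.8 to 304.7 CPM in CD and 125.5 to 230.4 CPM in TDD mice, and its part in these results was not tested.

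Gzmk had the largest change among the 10. The 5 CD mice had 1.27, 1.21, 0.619, 5.51 and 8.17 CPM, and the 5 TDD mice had 0.351, 0.298, 0.186, 0.220 and 0.357 CPM. Every CD mouse was above every TDD mouse, and the difference did not rest on the 2 highest mice, since the lowest CD mouse still exceeded the highest TDD mouse. The log2 fold change was -3.55 (standard error (SE) 0.56, q = 0.000429, edgeR), which is 11.7-fold lower on TDD, and -1.86 (SE 0.30, q = 0.00138, edgeR) without CD mice 4 and 5. Gzmk was called in all 20 fits that left out 1 mouse. The counts behind the TDD values were low, at 8 to 21 per mouse. Gzmk reached the 0.5 CPM needed to be tested in CD mice only, so it entered every comparison through the group in which it was high. With no such filter it was called at -3.57 (q = 0.000688, edgeR).

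Cd8b1, which encodes the beta chain of CD8, had 2.01, 1.63, 2.12, 6.26 and 10.4 CPM on CD and 0.151, 0.871, 0.746, 1.21 and 1.43 CPM on TDD. The groups did not overlap here either, and TDD mouse 1 was the lowest of the SPF mice. The log2 fold change was -2.33 (SE 0.55, q = 0.00838, edgeR). Without CD mice 4 and 5 it was -1.12 (SE 0.48, q = 0.172, edgeR) and no longer passed. Over all genes tested, 4.9% had all 5 TDD mice below all 5 CD mice, and Gzmk and Cd8b1 were the members among them.

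Nkg7 encodes a granule membrane protein needed for efficient release of lytic granules. It had 2.75, 2.26, 2.04, 5.76 and 8.34 CPM on CD and 2.18, 1.47, 1.82, 1.71 and 1.94 CPM on TDD. The groups overlapped at TDD mouse 1. Its log2 fold change was -1.21 (SE 0.31, q = 0.0125, edgeR), and -0.37 (SE 0.19, q = 0.272, edgeR) without CD mice 4 and 5. Leaving out CD mouse 5 alone brought it to -0.82 (q = 0.048, edgeR), which is under 2-fold.

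The other granule genes overlapped widely between the diets in SPF mice. Gzma had 18.3, 8.68, 9.48, 39.5 and 71.0 CPM on CD and 21.8, 13.1, 15.3, 16.7 and 14.5 CPM on TDD. CD mice 2 and 3 were below all 5 TDD mice, while CD mice 4 and 5 were above them. The log2 fold change was -0.85 (SE 0.43, q = 0.205, edgeR), and without CD mice 4 and 5 it turned to 0.41 (SE 0.26, q = 0.385, edgeR). Gzmb had the same form, with 8.90, 3.75, 3.97, 18.5 and 36.5 CPM on CD and 5.30 to 6.65 CPM on TDD, and its log2 fold change went from -1.28 (q = 0.0653, edgeR) to 0.08 (q = 0.89, edgeR) without both mice. Prf1 was scarce, with 22 to 81 counts per CD mouse. It had 0.606, 0.698, 0.539, 1.45 and 1.71 CPM on CD and 0.351, 0.642, 0.580, 0.853 and 0.578 CPM on TDD, and its log2 fold change was -0.74 (SE 0.32, q = 0.131, edgeR), and -0.04 (q = 0.953, edgeR) without both mice.

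Cd8a had 10.9, 5.75, 7.48, 21.6 and 29.8 CPM on CD and 6.46 to 8.62 CPM on TDD, so that CD mice 2 and 3 lay at or under most TDD-fed mice. Its log2 fold change was -0.98 (SE 0.33, q = 0.0543, edgeR), and -0.08 without CD mice 4 and 5. Cd3e, a subunit of the receptor complex of all T cells, had 6.58, 4.63, 5.79, 10.5 and 15.9 CPM on CD and 4.02 to 7.11 CPM on TDD, and its log2 fold change was -0.62 (SE 0.27, q = 0.134, edgeR), and -0.01 (q = 0.985, edgeR) without both mice. Itgae had 13.0, 9.79, 9.97, 21.8 and 30.6 CPM on CD and 8.88 to 11.9 CPM on TDD (-0.66, SE 0.24, q = 0.0673, edgeR), and without both mice it was at -0.03 (q = 0.926, edgeR). Cd160, which encodes a receptor for the herpesvirus entry mediator, had 3.31, 3.02, 2.45, 6.22 and 8.34 CPM on CD and 1.93 to 3.09 CPM on TDD. It passed q but not the fold limit (-0.91, SE 0.27, q = 0.0275, edgeR), and was at -0.25 (q = 0.479, edgeR) without both mice.

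**Figure D2:**
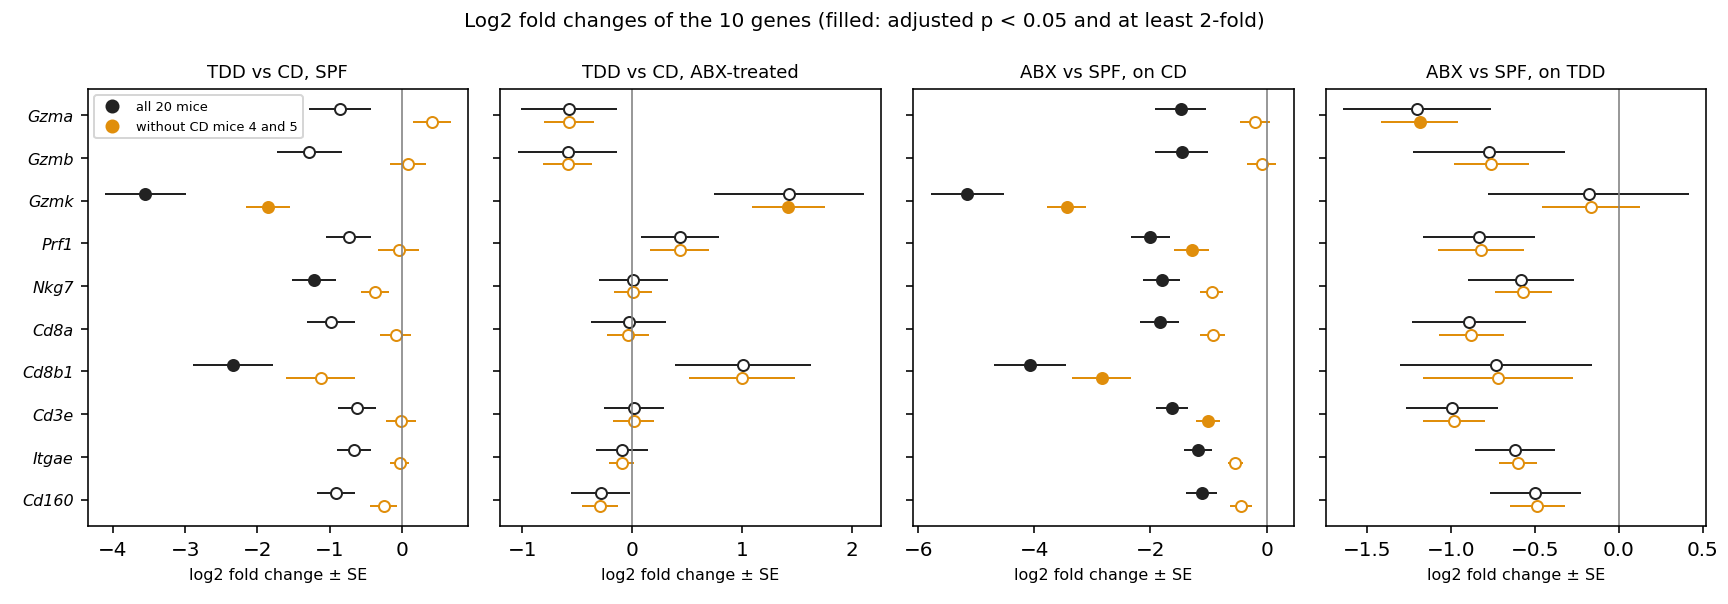
Log2 fold change ± SE of the 10 genes in 4 comparisons, with all 20 mice (black) and without CD mice 4 and 5 (orange), where filled points pass q under 0.05 and at least 2-fold. Gzmk is filled in both fits for TDD against CD in SPF mice and for ABX against SPF on CD.

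In ABX-treated mice, none of the 10 genes was called between TDD and CD, and none had an unadjusted p under 0.05 (edgeR). Over all genes tested, 0.307% were called and 14.7% had an unadjusted p under 0.05. The median log2 fold change over the 10 genes was -0.01. DESeq2 and limma-voom also called none of them. Gzmk had the largest difference, with 0.132, 0.0719, 0.102, 0.0584 and 0.0943 CPM in CD+ABX mice and 0.310, 0.340, 0.186, 0.199 and 0.215 CPM in TDD+ABX mice. All 5 TDD+ABX mice were above all 5 CD+ABX mice, which held for 2.35% of all genes, but these values stand for only 3 to 6 and 9 to 17 counts per mouse. Its log2 fold change was 1.42 (SE 0.68, q = 0.342, edgeR), and it passed in the fit without CD mice 4 and 5, at 1.42 (SE 0.33, q = 0.0413, edgeR), where 0.154% of all genes rose. That fit uses the same ABX-treated mice with a smaller pooled spread. No ABX-treated mouse reached 0.5 CPM of Gzmk, so the gene was tested in this comparison only through the CD mice, and it dropped out when the 2 ABX-treated groups were fitted alone. The call in the smaller fit is therefore given as a value and nothing rests on it. Cd8b1 followed at 1.01 (SE 0.62, q = 0.482, edgeR), and the other 8 genes were between -0.59 (Gzmb) and 0.44 (Prf1).

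In the fit of all 20 mice, the diet difference of Gzmk itself differed between ABX-treated and SPF mice. The difference of the 2 log2 fold changes was 4.98 (SE 0.87, q = 0.0496, edgeR), and 4 of all genes tested passed this test, or 0.0245%. Without CD mice 4 and 5 it was 3.28 (SE 0.45, q = 0.0115, edgeR). The call is close to the threshold, as it was lost in 16 of the 20 fits that left out 1 mouse, with q up to 0.124 (without CD+ABX mouse 2, edgeR), while the difference stayed between 4.34 and 5.25. It was also lost with no filter (4.99, q = 0.114, edgeR) and with 0.5 CPM in at least 5 mice (4.99, q = 0.0664, edgeR). Gzmk was tested through CD mice only, and its value in ABX-treated mice rests on 3 to 17 counts per mouse. The call is therefore given as a value only. For Cd8b1 the difference was 3.34 (SE 0.83, q = 0.146, edgeR), and 2.13 without both mice. For the other 8 genes it ranged from 0.28 (Gzma) to 1.22 (Nkg7) and did not pass.

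All 10 genes fell with ABX on CD. They include every granule gene, both CD8 chains, Cd3e, Itgae and Cd160, where 1.67% of all genes tested fell by the same rule (edgeR). The median log2 fold change was -1.72 over the 10 genes and 0.00 over all genes. For 8 of the 10, all but Gzma and Gzmb, every CD+ABX mouse was below every CD mouse, which held for 5.88% of all genes. Without CD mice 4 and 5, 4 of the 10 were called (Gzmk, Cd8b1, Prf1 and Cd3e), where 1.11% of all genes fell, and the median was -0.94.

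Gzmk fell by 5.15 on the log2 scale (SE 0.64, q = 9.83e-05, edgeR), or 35.6-fold, and by 3.44 (SE 0.33, q = 0.000122, edgeR) without CD mice 4 and 5. Cd8b1 had 0.243, 0.144, 0.369, 0.214 and 0.340 CPM in CD+ABX mice, a log2 fold change of -4.07 (SE 0.62, q = 0.00057, edgeR), and -2.84 (q = 0.00433, edgeR) without both mice. These 2 genes were thus the lowest of the 10 in CD+ABX mice relative to CD mice, as they were in TDD mice. Prf1 had 0.243, 0.192, 0.205, 0.253 and 0.340 CPM in CD+ABX mice (-2.0, SE 0.34, q = 0.00112, edgeR), and stayed called at -1.29 (q = 0.0154, edgeR) without both. Cd3e had 2.62, 2.76, 2.85, 2.51 and 3.32 CPM in CD+ABX mice (-1.63, SE 0.28, q = 0.00112, edgeR), and -1.0 (q = 0.00906, edgeR) without both.

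The other 6 genes were no longer called on CD once CD mice 4 and 5 were left out. Cd8a (-1.84 with all mice) stood at -0.92 (q = 0.0174, edgeR), Nkg7 (-1.81) at -0.95 (q = 0.00824, edgeR) and Itgae (-1.18) at -0.54 (q = 0.0195, edgeR), so these 3 still passed q and missed the fold limit. Cd160 (-1.12) was at -0.44 (q = 0.158, edgeR). Gzma had 8.51, 10.6, 11.7, 10.4 and 11.6 CPM in CD+ABX mice, which is above CD mice 2 and 3 for 4 of the 5, and its log2 fold change went from -1.48 (SE 0.44, q = 0.0334, edgeR) to -0.19 (q = 0.704, edgeR). Gzmb had 4.32 to 5.88 CPM in CD+ABX mice, all above CD mice 2 and 3, and went from -1.46 (SE 0.45, q = 0.0407, edgeR) to -0.08 (q = 0.881, edgeR). The calls of Gzma and Gzmb were also lost when any 1 of the 5 CD+ABX mice was left out. Without CD mouse 5 alone the log2 fold changes were -0.84 for Gzma, -0.75 for Gzmb, -0.80 for Cd160 and -0.86 for Itgae, none of them called, and without CD mouse 4 alone they were -1.35 for Gzma, -1.35 for Gzmb and -1.0 for Cd160, also not called (edgeR).

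On TDD, ABX lowered none of the 10 genes by the full rule, where 1.63% of all genes were called, and 5 of the 10 had an unadjusted p under 0.05 against 30.5% of all genes (edgeR). DESeq2 and limma-voom each called 1, and their shares over all genes are not given here. The median log2 fold change over the 10 genes was -0.75, with each of the 10 below 0. For Gzma, Gzmb, Nkg7, Cd8a and Itgae, every TDD+ABX mouse was below every TDD mouse, which held for 5.05% of all genes. Gzma had 5.97, 11.1, 4.57, 6.83 and 6.92 CPM in TDD+ABX mice (-1.20, SE 0.44, q = 0.0719, edgeR). Cd3e passed q with a fold change just under 2 (-0.99, SE 0.27, q = 0.0208, edgeR), with 1.97 to 4.05 CPM in TDD+ABX mice. In contrast to the comparison on CD, Gzmk differed little on TDD (-0.18, SE 0.60, q = 0.868, edgeR), at 0.186 to 0.357 CPM in TDD mice and 0.186 to 0.340 CPM in TDD+ABX mice. This comparison holds no CD mouse, yet CD mice 4 and 5 enter it through the shared spread. Without them Gzma was called (-1.19, SE 0.23, q = 0.00425, edgeR), where 1.16% of all genes fell.

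Per transcript length, Gzma was the most abundant of the 10 genes in each group. In TPM (the share of a gene among all transcripts, corrected for length), Gzma was at 50.9 ± 44.4 in CD, 27.3 ± 4.85 in TDD, 18.6 ± 2.17 in CD+ABX and 12.8 ± 4.19 in TDD+ABX mice (mean ± SD, n = 5). In CD mice, Gzmb followed at 14.0 ± 13.2 TPM and Cd3e at 9.82 ± 5.28 TPM, with SDs as large as their gap. Nkg7, Cd8a, Itgae, Gzmk, Cd160 and Cd8b1 had CD means of 4.23 to 7.72 TPM and did not differ beyond their spread, and Prf1 was the lowest at 0.546 ± 0.282 TPM. In CD+ABX mice the order at the bottom changed, with Cd8b1 at 0.251 ± 0.0812 TPM and Gzmk and Prf1 at 0.136 ± 0.0309 and 0.137 ± 0.0270 TPM. The highest group mean exceeded the lowest by 36.5-fold for Gzmk and 16.8-fold for Cd8b1, and by 2.33-fold (Itgae) to 4.0-fold (Gzma) for the other 8 genes.

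Ratios between genes within a mouse were compared next, since they do not move when all lymphocyte genes rise or fall together. There were 5 ratios in 4 comparisons, and q is over these 20 two-sided exact permutation tests of 5 against 5 mice, in which the smallest possible p is 0.00794. The log2 ratio of Cd8b1 to Cd8a was -2.44, -1.82, -1.82, -1.79 and -1.52 in CD mice and -5.66, -2.89, -3.33, -2.83 and -2.48 in TDD mice. CD mice 4 and 5 were here close to CD mice 2 and 3, unlike their levels. The means were -1.88 ± 0.34 and -3.44 ± 1.28 (SD, n = 5; exact permutation q = 0.0198), and all CD mice were above all TDD mice. In ABX-treated mice the order of the diets was the opposite, at -4.07 ± 0.54 on CD and -3.10 ± 0.48 on TDD (exact permutation q = 0.0198, n = 5), again without overlap. These ratios rest on only 6 to 18 counts of Cd8b1 per CD+ABX mouse and 15 to 48 per TDD+ABX mouse. The nearest mice were at -3.663 (CD+ABX mouse 3) and -3.585 (TDD+ABX mouse 4), and Cd8b1 itself was not called there (q = 0.482, edgeR). With ABX on CD the ratio fell by 2.19 (exact permutation q = 0.0198), while on TDD the difference was 0.34 (exact permutation q = 0.802).

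The log2 ratio of Gzmk to Cd3e followed the same pattern. It was -2.38, -1.94, -3.23, -0.94 and -0.96 in CD mice, and between -4.88 and -3.51 in TDD mice, a difference of -2.46 (exact permutation q = 0.0198, n = 5). In ABX-treated mice it was -4.99 ± 0.44 on CD and -3.51 ± 0.47 on TDD (SD, n = 5; exact permutation q = 0.0198), from the low counts given above. Gzma and Gzmb behaved differently. Their ratios to Cd3e differed between the diets in SPF mice by 0.10 and -0.24 (exact permutation q = 0.802 and 0.609), and by 0.50 and 0.22 without CD mice 4 and 5. CD mice were spread over 0.71 to 2.16 for Gzma. In ABX-treated mice, the Gzmb to Cd3e ratio was lower on TDD, at 0.27 ± 0.25 against 0.88 ± 0.25 (SD, n = 5; exact permutation q = 0.0198), and the Gzma to Cd3e ratio differed by -0.61 (exact permutation q = 0.0635). With TPM in place of CPM the difference for Gzmb was -0.37 (exact permutation q = 0.173).

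The last ratio set gamma delta against alpha beta T cells, through Trdc and Trac, which encode the constant parts of the delta and alpha chains of the T cell receptor. The log2 ratio of Trdc to Trac was 0.00, -0.84, -0.54, -1.05 and -1.74 in CD mice and 0.72 to 1.37 in CD+ABX mice, without overlap and with a difference of 2.01 (exact permutation q = 0.0198, n = 5). Trac fell with ABX on CD, by 2.11 on the log2 scale (q = 0.00172, edgeR), while Trdc was at 2.23 to 4.08 CPM in CD and 2.22 to 3.83 CPM in CD+ABX mice, a log2 difference of 0.01 (SE 0.16, q = 0.972, edgeR). On TDD, Trdc too was lower with ABX, at 2.46 to 3.22 CPM in TDD+ABX and 4.18 to 5.81 CPM in TDD mice. Its log2 fold change there was -0.83 (q = 0.0033, edgeR), under 2-fold, and that of Trac was -1.29 (q = 0.0252, edgeR). The ratio differed by 0.47 with ABX on TDD (exact permutation q = 0.516). In SPF mice the ratio differed between TDD and CD by 1.09 (exact permutation q = 0.0635), and by 0.72 (exact permutation q = 0.22) without CD mice 4 and 5. It was 1.73 in TDD mouse 1, which had few B cell markers, and -0.30 to 0.10 in TDD mice 2 to 5, which had many. CD mice did not share this order. CD mice 1, 4 and 5, with few B cell markers, had 0.00, -1.05 and -1.74. CD mice 2 and 3, with many, had -0.84 and -0.54. The part of B cell content in this ratio was not tested. Trdc itself was at 4.18 to 5.81 CPM in TDD mice, against 2.23 to 4.08 CPM in CD mice (log2 fold change 0.59, SE 0.16, q = 0.0195, edgeR), under 2-fold. It was 0.58 and no longer passed (q = 0.0855, edgeR) when CD mice 4 and 5 were left out. CD mice 4 and 5, the highest for Cd3e and Cd8a, had Trdc at 2.89 and 3.58 CPM, within the range of CD mice 1 to 3.

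**Figure D3:**
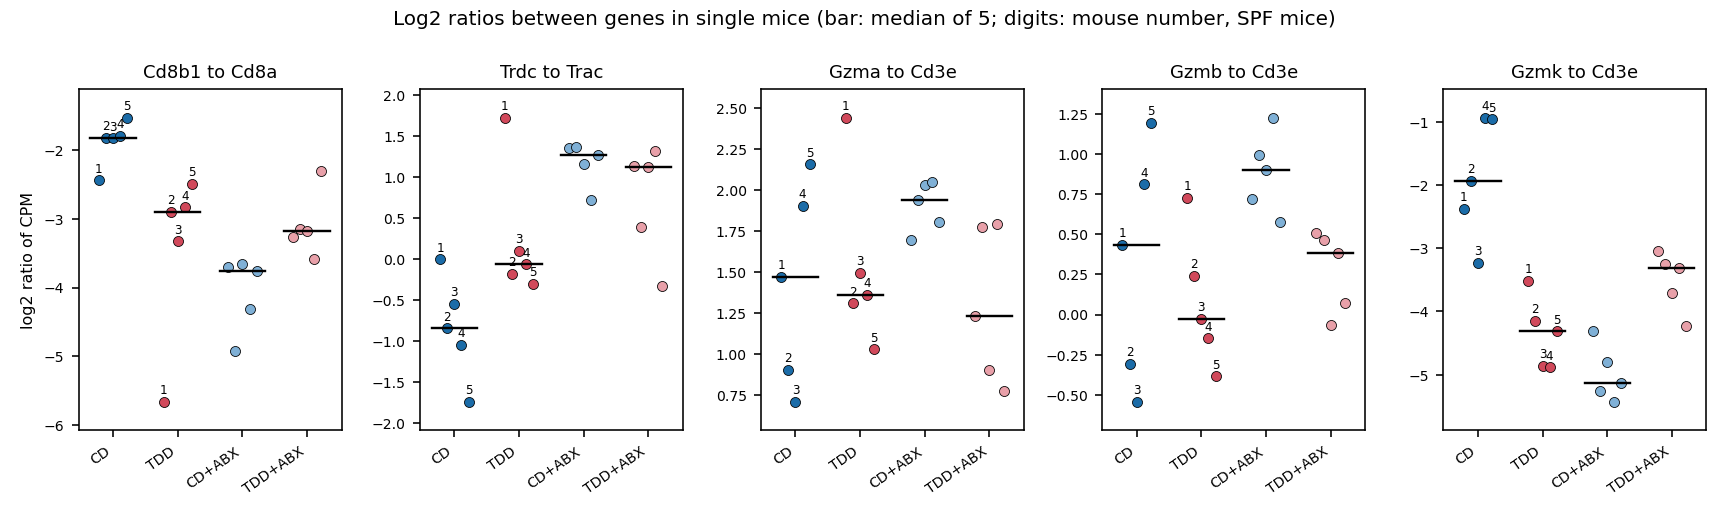
Log2 ratio of the CPM of 2 genes in each of the 20 mice for the 5 ratios, where each point is 1 mouse, the bar is the median of 5 and digits give the mouse number in the SPF groups. Cd8b1 to Cd8a and Gzmk to Cd3e separate CD from TDD mice, and Trdc to Trac separates CD from CD+ABX mice.

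Other T cell and cytotoxic genes were taken from lists that share no gene with the 10. The lists were chosen with earlier results of these data known, so their counts are descriptions. Of all genes tested, 1.67% fell with ABX on CD by the same rule, or 1.11% without CD mice 4 and 5. With ABX on TDD, 1.63% were called in either direction. Of 16 T cell receptor and T cell genes, none was called between the diets in SPF mice (14 log2 fold changes below 0, median -0.47, or -0.0083 without CD mice 4 and 5) or in ABX-treated mice (median 0.30). With ABX on CD, 12 of the 16 fell, with a median of -1.70, and 11 of them without CD mice 4 and 5. Those with the lowest q included the kinase gene Zap70 (-1.50, q = 0.000414), Cd6 (-2.50, q = 0.000559), the adaptor gene Lat (-2.0, q = 0.000804), the receptor beta chain gene Trbc1 (-1.56, q = 0.000912) and Cd3g (-1.40, q = 0.00123, edgeR throughout). On TDD, 6 of the 16 fell with ABX, with a median of -0.96. The summed B cell markers were above 75 CPM in 2 of 5 CD mice and in no CD+ABX mouse. In CD mice 4 and 5 the sum was 6.17 and 5.09 CPM, while Trac, at 5.965 and 11.91 CPM, was the highest of the CD group. The part of B cell content in the fall of these genes was not tested.

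Of 15 gamma delta and intraepithelial lymphocyte genes, 12 were matched and tested. None was called between the diets in SPF mice, with a median log2 fold change of 0.09, or in ABX-treated mice (0.04). The median in SPF mice was 0.32 without CD mice 4 and 5, and in that fit Trgv7, a variable segment of the T cell receptor gamma chain named here after its value was seen, was called higher on TDD (1.06, SE 0.25, q = 0.0179, edgeR). With all mice it was at 0.64 (q = 0.111, edgeR), with 0.302 to 0.863 CPM in CD and 0.527 to 0.954 CPM in TDD mice. The 0.863 CPM was that of CD mouse 5, which the smaller fit left out, and no other CD mouse was above 0.413 CPM. A larger difference in that fit was thus built in, and the call is given as a value only. ABX on CD lowered 6 of the 12, with a median of -0.93, namely Cd101 (-1.01, q = 0.00112), the gut-homing receptor gene Ccr9 (-1.0, q = 0.00321), Cd96 (-1.0, q = 0.00661), Gpr18 (-1.54, q = 0.00775), Itgb7 (-1.17, q = 0.00828), whose product pairs with that of Itgae, and the activation marker Cd69 (-1.21, q = 0.00934, edgeR throughout). Of these, Gpr18 and Cd69 remained without CD mice 4 and 5, and the same 2 fell with ABX on TDD. Over all genes tested, 1.67% fell with ABX on CD and 1.63% were called with ABX on TDD.

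Of 28 other cytotoxic effector and natural killer (NK) receptor genes, 25 were tested and none was called between the diets in either setting. ABX on CD lowered 7 of the 25, where 1.67% of all genes tested fell. When CD mice 4 and 5 were left out, 5 of these 7 were tested and none was called, and Eomes and Klrc1 were no longer tested, since they reached 0.5 CPM in CD mice 4 or 5 only. The 6 genes of this list with the lowest q were the T-box genes Tbx21 (-1.34, q = 0.0058) and Eomes (-3.64, q = 0.00689), Ctsw (-1.03, q = 0.00689), Cd226 (-1.31, q = 0.0102) and Fasl (-1.38, q = 0.0106) on CD, and Cst7 on TDD (-1.44, q = 0.00944, edgeR throughout). Eomes was at 0.459 and 0.884 CPM in CD mice 4 and 5 and at 0.000 to 0.226 CPM in the other 18 mice. Klrc1, an NK receptor gene named here after its values were seen, was at 0.597 and 1.24 CPM in CD mice 4 and 5 and at 0.117 to 0.326 CPM in the other 18 (-1.48 with ABX on CD, q = 0.0186, edgeR). Other NK cell genes did not have this form. Ncr1 was at 0.239 to 0.850 CPM and Klrb1c at 0.367 to 1.56 CPM over all 20 mice, and CD mice 4 and 5 were at 0.482 and 0.547 CPM for Ncr1 and at 0.367 and 0.632 CPM for Klrb1c.

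None of 11 genes of epithelial partners of these lymphocytes was called in any comparison, and their median log2 fold changes lay between -0.23 and -0.06 in the 4 comparisons. Il15, a survival cytokine for intraepithelial lymphocytes, was at 23.0 ± 6.71 CPM in CD and 25.0 ± 4.58 CPM in TDD mice (SD, n = 5), and Cdh1, the E-cadherin gene, at 713 ± 94.2 and 636 ± 24.7 CPM. Of 4 plasma cell genes, Jchain (-1.05, q = 0.00236) and Mzb1 (-1.27, q = 0.00306, edgeR) fell with ABX on TDD, where 1.63% of all genes were called. Of 7 macrophage and dendritic cell markers, none reached the fold limit, but 5 passed q for TDD against CD in SPF mice, 6 for ABX on CD and 3 for ABX on TDD. The share of all genes that passed q alone is not given here, so these counts have no reference to be read against. All 7 had log2 fold changes below 0 in each of the 4 comparisons, with medians of -0.50, -0.33, -0.48 and -0.25 in the order used above. Adgre1, which encodes the macrophage antigen F4/80, was at -0.77 in SPF mice (q = 0.00179, edgeR) and at -0.68 (q = 0.0207, edgeR) without CD mice 4 and 5, where 3 of the 7 passed q. Of 4 smooth muscle markers, none passed q in any comparison.

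The 10 genes varied together over mice. Over the 20 mice, Pearson's r of log2(CPM + 0.5) between pairs of members had a median of 0.90 over 45 pairs, from 0.72 (Gzma and Cd8b1) to 0.97 (Cd8a and Itgae). The mice share diet and antibiotic groups. Over the 18 other mice the median was 0.71, from 0.17 (Gzmb and Gzmk) to 0.95 (Cd3e and Itgae). Within the other 3 groups, as deviations from the group means of 15 mice, it was 0.37, from -0.22 (Gzmk and Prf1) to 0.91 (Cd8b1 and Cd3e). These values are descriptions, and for Gzmk and Prf1 they rest on few counts in the ABX-treated mice.

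The genes outside the set whose pattern over the 20 mice was most like the mean z-score of the 10 members included Ccl5 (r = 0.98), Ctsw (0.97), Apol7e (0.96), H2-Q4 (0.95), Cd3g (0.94), Cxcr6 (0.94), Cd7 (0.93), Trbv29 (0.93) and Tbx21 (0.93). Ccl5 is a chemokine stored in granules of cytotoxic T cells, and had 13.1, 8.38, 6.72, 37.9 and 52.4 CPM in CD mice, 5.73 to 9.74 CPM in TDD mice and 3.33 to 6.45 CPM in ABX-treated mice. Cxcr6 encodes a chemokine receptor of tissue-resident T cells and had 2.75 to 9.09 CPM in CD mice and 2.01 to 2.89 CPM in TDD mice. Trbv29, a variable segment of the T cell receptor beta chain, was at 0.642 and 1.35 CPM in CD mice 4 and 5 and at no more than 0.2195 CPM in the other 18. It thus reached the 0.5 CPM needed to be tested in these 2 mice only. Without CD mice 4 and 5, r over 18 mice ranged from 0.67 (Trbv29) to 0.95 (Cd3g) for these 9 genes. Trac had r = 0.85, Cd4 0.79 and Trdc 0.23 over the 20 mice (0.88, 0.79 and 0.59 over the 18), and the B cell gene Ms4a1 had -0.0032, or 0.55 over the 18 mice without CD mice 4 and 5.

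**Figure D4:**
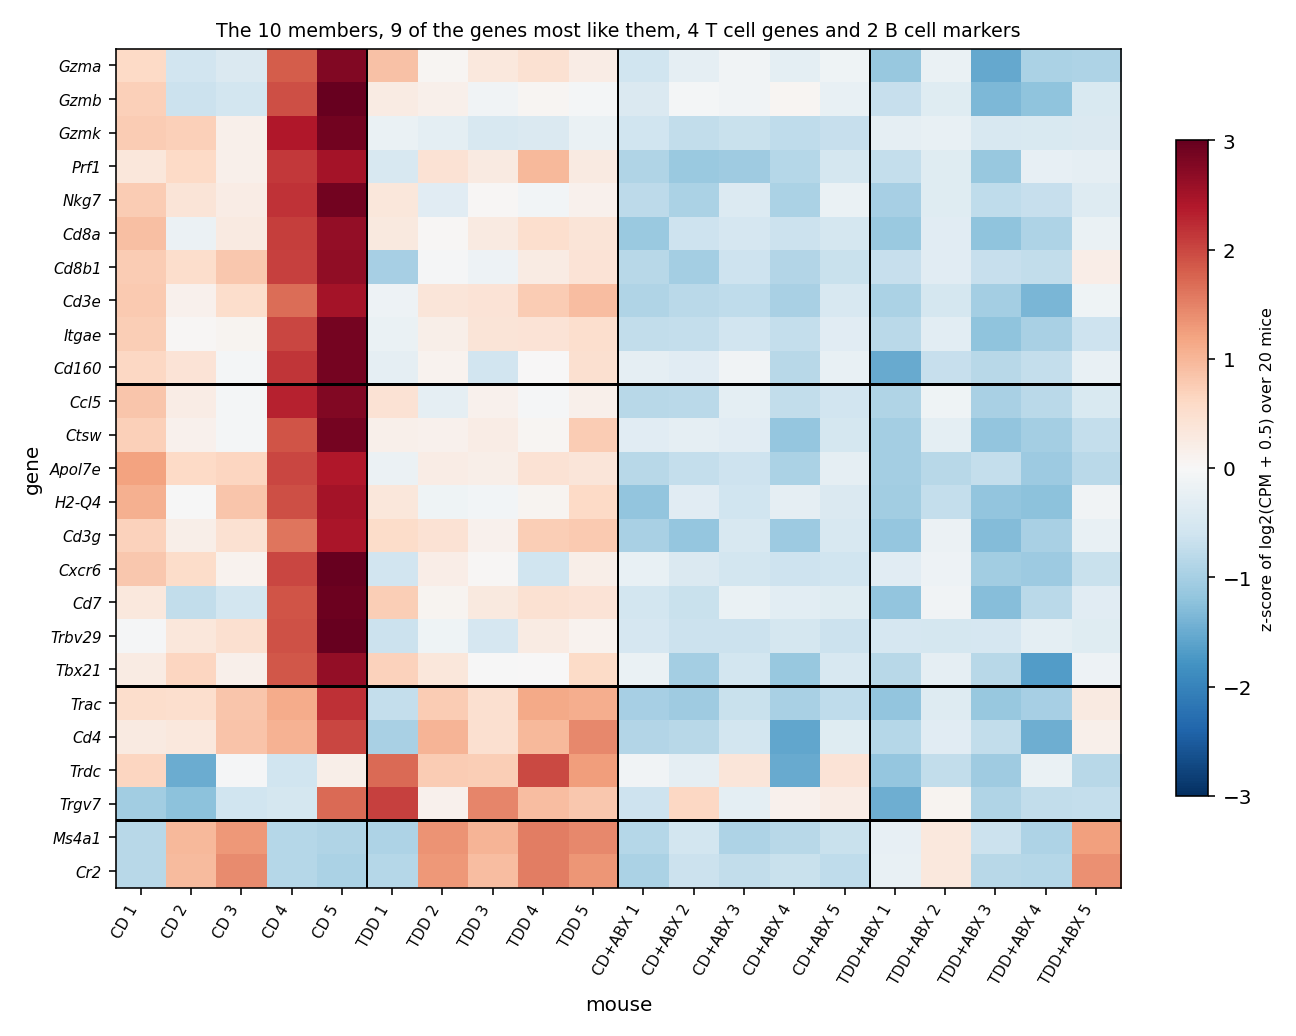
Z-scores of log2(CPM + 0.5) over 20 mice for the 10 members, 9 of the genes most like them, 4 T cell genes (Trac, Cd4, Trdc, Trgv7) and 2 B cell markers (Ms4a1, Cr2), with mice in columns by group. The members and the genes like them are darkest in CD mice 4 and 5, where the B cell markers are low.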

How the data were processed

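RNA of the terminal ileum of 20 mice was poly-A-enriched and sequenced on an Illumina NovaSeq instrument, and per the labels the authors assigned reads to GRCm38 (mm10) with kallisto 0.44.0. The gene table deposited by the authors holds unnormalized estimated counts, and their transcript tables hold estimated counts and TPM. The gene counts were rounded and scaled by TMM. Genes reaching 0.5 CPM in 1 or more mice, 16306 in all, entered edgeR 4.0.16 (quasi-likelihood, robust, all 4 groups in 1 fit), with Benjamini-Hochberg q under 0.05 and at least 2-fold change as the call. SE is the log2 fold change divided by the square root of F. The deposited TPM were summed per gene for levels between genes. DESeq2 1.42.0 and limma 3.58.1 (voom, and log2(TPM + 1)) were alternatives, as were RLE and upper-quartile scaling, other filters, 2 groups fitted alone and leaving out each mouse. The fit was tested on simulated counts. The members and lists were chosen with earlier results of these data known. Genes named are the 10 members, genes of the lists called in a comparison (at most 6 a list, by q), genes of the ratios and markers, and the 10 most like the members; a few of these are not reported here. Of 100 list genes, 97 were matched by symbol. Nothing states that mice of a group were housed apart, so p-values measure the spread between these mice, and depth limits only counting error. All 20 mice were used.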

Additional observations from a re-analysis of the deposited data

Results flagged for a closer look

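Of 60 sets of 5 mice examined (the 10 genes and 5 ratios in each group), 3 had a mouse far from the other 4 by Dixon's test, which chance alone gives in about 1 in 20. CD+ABX mouse 1 had the lowest Cd8a of its group, at 3.15 CPM against 4.26 to 4.67 CPM. TDD mouse 1 had the lowest log2 ratio of Cd8b1 to Cd8a, at -5.66, from 6 counts of Cd8b1, and the highest log2 ratio of Trdc to Trac, at 1.73. Its summed B cell markers, at 5.32 CPM, were also the lowest of the TDD group, and their part in these ratios was not tested. The diet difference of Gzmk differed between ABX-treated and SPF mice by 4.98 on the log2 scale (q = 0.0496, edgeR's test of the difference), being -3.55 in SPF and 1.42 in ABX-treated mice. The latter value rests on 3 to 17 counts per mouse, and the call was lost in most fits that left out 1 mouse.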

How the results depend on the processing

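Most of the calls depended on CD mice 4 and 5. These were picked for being the highest of the 20 mice for all 10 genes. Leaving them out therefore moves each fall from CD towards 0 or past it by construction, and leaves fewer CD mice. Without both, the number of the 10 genes called went from 3 to 1 for TDD against CD in SPF mice, from 0 to 1 in ABX-treated mice, from 10 to 4 for ABX against SPF on CD and from 0 to 1 on TDD. The log2 fold change in SPF mice turned to 0.41 for Gzma and 0.084 for Gzmb, and the difference of the diet effect turned to -0.99 for Gzma, -0.67 for Gzmb, -0.065 for Itgae and -0.044 for Cd160. With 5 against 3 mice the exact permutation p cannot go below 0.0357, and no ratio that involves CD passed over the 20 tests. The log2 differences were then -1.41 (Cd8b1 to Cd8a) and -1.83 (Gzmk to Cd3e) between diets in SPF mice, and -2.05, 1.64 (Trdc to Trac) and -2.47 with ABX on CD, all at q = 0.0649. At the same q, the ABX difference on CD went from 0.47 to 0.87 for Gzma to Cd3e and from 0.56 to 1.02 for Gzmb to Cd3e. The Gzmb to Cd3e difference in SPF mice turned to 0.22. With TPM in place of CPM the Gzmb to Cd3e difference in ABX-treated mice was -0.37.

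Fitting the 2 groups alone gave 1 call in SPF mice and 1 on TDD for ABX against SPF, and limma on log2(TPM + 1) gave 5 calls for ABX against SPF on CD. On TDD, upper-quartile scaling, DESeq2, limma-voom and q without a fold limit gave 1 call each. For the difference of the diet effect, DESeq2 called 2 genes, and RLE size factors, no filter, 0.5 CPM in at least 5 mice, limma-voom and limma on log2(TPM + 1) called 0. The share of all genes called in each of these fits is not given here, so these counts have no reference to be read against. The cause of these changes was not tested. Values near 0 changed sign, as for Cd3e in ABX-treated mice (-0.034 with limma-voom and -0.15 with limma on log2(TPM + 1)), Gzmk with ABX on TDD (0.028 with limma on log2(TPM + 1)) and the Gzma difference of the diet effect (-0.21 and -0.082 with the same 2 tools).

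Leaving out 1 mouse gave 2 to 6 calls in SPF mice, 0 to 0 in ABX-treated mice, 6 to 10 for ABX on CD, 0 to 1 on TDD and 0 to 1 for the difference. For these fits, too, the share of all genes called is not given here. Leaving out 1 mouse also changed the sign of ratios near 0, with the Gzma to Cd3e difference in SPF mice from -0.13 to 0.28 and the Cd8b1 to Cd8a difference with ABX on TDD from -0.21 to 0.58. The Trdc to Trac difference in SPF mice ranged from 0.73 to 1.3 and the Gzma to Cd3e difference in ABX-treated mice from -0.73 to -0.48, each passing in 1 fit. Fold changes near 0 did the same. In ABX-treated mice, Nkg7 ranged from -0.064 to 0.13, Cd8a from -0.17 to 0.059 and Cd3e from -0.14 to 0.12, and the difference of the diet effect ranged from -0.34 to 0.53 for Gzma and from -0.0052 to 0.95 for Gzmb.

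Samples with the same number came from different mice and shared only a number. Over 30 pairs, 5 correlated above 0.1 (median -0.03). A fit with the replicate number as a block called 0 genes for the difference of the diet effect, turned Cd3e in ABX-treated mice to -0.0029 and kept the other counts within 1.5 times. Depth limits Gzmk in ABX-treated mice, at 3 to 17 counts, and Cd8b1, at 6 to 48 counts.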

Other observations

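Outside the 10 genes, 33 of the 94 list genes tested passed q without reaching 2-fold in 1 or more of the 4 comparisons, 12 of them for TDD against CD in SPF mice. The share of all genes that did so is not given here, and the lists were chosen with earlier results known. These counts are thus no result about the lists. The 3 given here were chosen after their values were seen. Tnfrsf14, which encodes the herpesvirus entry mediator, a partner of the CD160 receptor, was at 23.7 ± 1.11 CPM in CD, 19.5 ± 1.66 in TDD, 18.3 ± 1.77 in CD+ABX and 14.5 ± 1.24 in TDD+ABX mice (SD, n = 5). Its log2 fold change with TDD was -0.28 in SPF (q = 0.0173, or 0.0594 without CD mice 4 and 5, edgeR) and -0.33 in ABX-treated mice (q = 0.0311, edgeR), and with ABX it was -0.37 on CD (q = 0.00341, edgeR) and -0.43 on TDD (q = 0.00182, edgeR). Il15ra, the receptor chain that presents interleukin-15 to lymphocytes, was at 13.0 ± 0.68 CPM in CD and 15.4 ± 0.867 CPM in TDD mice (SD, n = 5; 0.24 on the log2 scale, q = 0.00451, edgeR). With ABX it was at 12.5 ± 0.455 and 12.7 ± 0.239 CPM on the same diets. Klrb1c, the gene of the NK1.1 antigen, was at 0.615 ± 0.177 CPM in CD and 1.2 ± 0.354 CPM in TDD mice (SD, n = 5; log2 fold change 0.97, q = 0.0135, edgeR). It was 0.79 and no longer passed (q = 0.0972, edgeR) without CD mice 4 and 5.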
